A study of Mus musculus with 16 samples.

Results

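Endothelial cells (EC) of the lung, which form the inner lining of its vessels, were compared between mice bearing metastases (d36) and mice bearing a primary tumour (d15). The cells were chosen by the day in their names in the deposited table, which gave 1628 cells of d36 and 1507 of d15, together 3135 of the 9036 cells of the study. After cells of other types and poor cells had been left out, 1578 cells of d36 and 1487 of d15 were counted as EC. All mice were female C57BL/6N, and per the labels Lewis lung carcinoma cells, an established tumour line from a mouse lung, had been implanted subcutaneously. The labels call the d36 mice metastasis-bearing and do not state what else was done to them, nor how many mice were pooled. EC were sorted by flow cytometry and profiled with the version 2 single-cell 3′ kit of 10x Genomics, in which each transcript molecule carries a unique molecular identifier (UMI). Cells of wild-type mice (d0) and of mice after removal of the tumour (d22) are given only as levels beside this pair.

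The vessels of the lung are mostly capillaries, built from general capillary cells, which serve as the progenitors of the capillary bed, and aerocytes, the wide cells that face the air sacs and carry gas exchange. Circulating tumour cells meet this endothelium first when they seed the lung. EC also answer cytokines: interferon-gamma switches on large families of GTPases that guard intracellular membranes, and it raises the MHC molecules that display peptides to T cells.

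The EC of d36 held 6696439 UMIs and those of d15 6926148. Depth per cell was near but not equal, with a median of 3408 UMIs and 714 genes at d36 and 4196 UMIs and 837 genes at d15. The 2 other days were deeper, at a median of 7654 UMIs at d0 and 7667 at d22. All 12 pan-endothelial markers, such as Cdh5, Pecam1 and Cldn5, were present at both days. A UMI of at least 1 of them was found in 99.9% of d15 cells and 100% of d36 cells. The shares were the same over all deposited cells, including those left out, so they cannot tell EC from other cells. Transcripts of the mitochondrial genome took a median of 2.85% of a cell's UMIs at d36 and 1.96% at d15. Of the non-zero values in the table, 53.9% at d36 and 54.8% at d15 were exactly 4, and 65.1% and 66.5% were multiples of 4, while the design text gives 4 libraries per sample. Whether a molecule was counted once in each library was not tested, so every interval on a level or ratio was computed from the counts divided by 4. Intervals on shares of cells use whole cell numbers. Only 6 cell barcodes were shared between the 2 days.

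Levels are UMIs summed over the EC of a day and scaled to a common total (CPM, counts per 1000000 UMIs), and the ratio is d36 over d15. Each day was 1 pooled sample, because the cell names do not carry the library. No difference therefore has a replicate check or a p-value, and the 95% intervals cover counting error only. A gene was measured with a mean of at least 20 CPM over the 2 days and called higher or lower at d36 when the ratio was at least 1.5 in either direction. Of 6136 measured genes, 83 were higher at d36, which is 1.35%, and 181 were lower, which is 2.95%. The interval also excluded 1 for 64 of the higher genes and 153 of the lower ones. Over all measured genes 2644, or 43.1%, had a ratio above 1 and 3492 had one below 1. Counts of list members above or below 1 are to be read against this share. The median log2 ratio over all measured genes was -0.04. With TMM scaling (edgeR) it moved by 0.05, and 117 genes were higher and 131 lower.

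**Figure D1:**
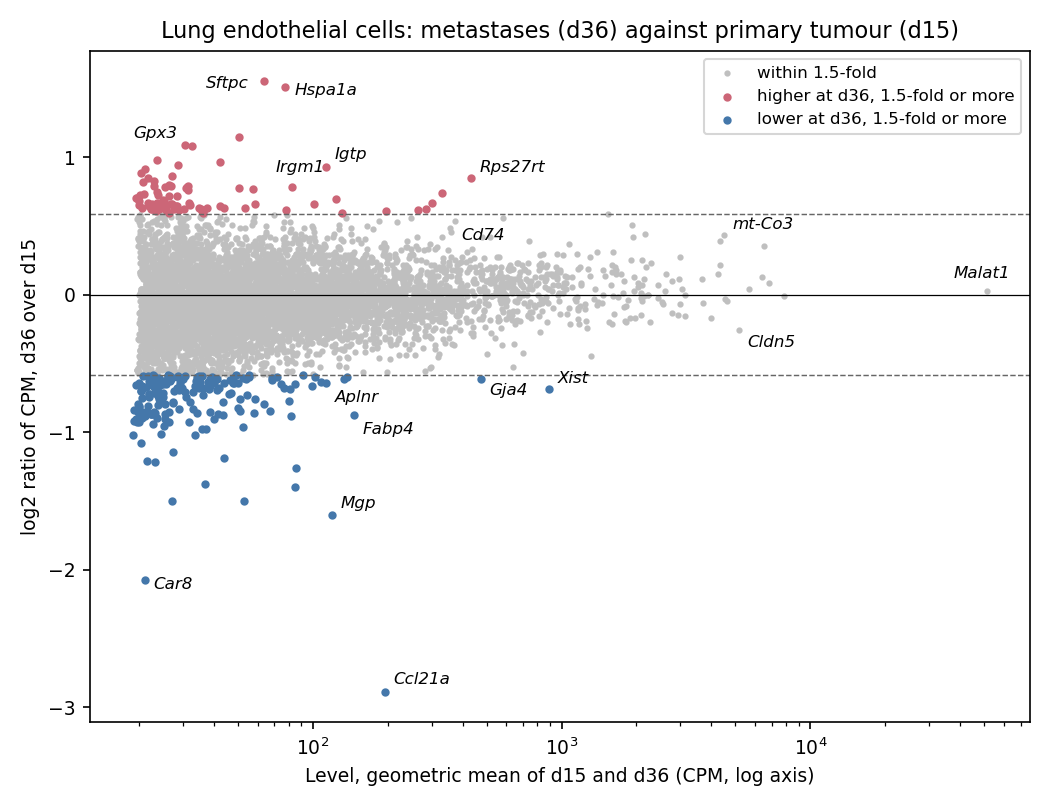
Level of each of the 6136 measured genes (horizontal, geometric mean CPM of d15 and d36, log axis) against its log2 ratio d36 over d15 (vertical), each point 1 gene and the dashed lines the 1.5-fold limits. The 83 higher genes (red) and 181 lower genes (blue) lie mostly at low levels, with Hspa1a and Sftpc at the top, Ccl21a at the bottom, and Xist and Gja4 the lower genes farthest to the right.

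The interferon-induced GTPases were the gene list that stood highest at d36. All 11 measured members had a ratio above 1, with a median log2 ratio of 0.53, and 4 members were higher by the size rule: Igtp, Irgm1, Irgm2 and Tgtp2. Each belongs to the immunity-related GTPases, which coat and break up the vacuoles of intracellular microbes. Igtp stood at 82 CPM at d15 (95% interval 69.1 to 96.7) and 156 CPM at d36 (138 to 176), a ratio of 1.9 (1.55 to 2.35). Its intervals at the 2 days did not overlap, and d36 matched the 156 CPM of d22 and lay above the 112 CPM of d0. Irgm1, which steers the family to host membranes, stood at 62.7 CPM and 108 CPM, a ratio of 1.72 (1.35 to 2.2). Tgtp2 stood at 20.1 and 36.6 CPM, a ratio of 1.82 (1.18 to 2.85), and Irgm2 at 22.5 and 35.2 CPM, a ratio of 1.56 (1.03 to 2.41). Tgtp1, a near-identical copy of Tgtp2 with which reads can be shared, stood at 9.96 and 15.1 CPM, below the filter. The 5 measured guanylate-binding proteins, a related family, had ratios between 1.02 (Gbp9) and 1.49 (Gbp4, 64.5 and 96.5 CPM), all short of the size rule. Gbp5, below the filter, stood at 6.93 and 15.4 CPM, a ratio of 2.22 (1.08 to 4.83). Gbp2 stood at 153 and 221 CPM, Iigp1 at 226 and 302 CPM and Ifi47 at 209 and 266 CPM. Unlike Igtp, several members stood at d36 near their level of d0, a deeper day. At d0 Irgm1 stood at 98 CPM, Irgm2 at 30.9 CPM, Gbp4 at 92.1 CPM and Iigp1 at 299 CPM. Gbp2 and Ifi47 stood at 182 and 225 CPM at d0, between d15 and d36. Tgtp2 stood at 11.1 CPM at d0, below both days.

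More cells held a UMI of Igtp and Irgm1 at d36 when each cell was thinned to 1500 UMIs, which left out 128 cells of d36 and 81 of d15. Igtp was then found in 10.4% of d36 cells (exact 95% interval 8.89 to 12.1) and 6.05% of d15 cells (4.86 to 7.42), against 13.9% and 8.47% before thinning. Irgm1 was found in 8.07% and 5.05%. For Tgtp2 the shares were 3.79% (2.87 to 4.91) and 2.49% (1.74 to 3.45), with intervals that overlapped. Those of Gbp2 overlapped too, at 14.5% (12.7 to 16.4) and 12.6% (10.9 to 14.4). A cluster led by interferon genes such as Ifit3b, Ifit3 and Igtp made up 64 cells at d36 and 49 at d15. Without it the ratio of Igtp was 1.79. Across all the alternative settings the median log2 ratio of the list lay between 0.39 and 0.59.

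The start regions of the 4 GTPase genes past the size rule are shown because they share an element that interferon-activated factors are known to bind. The 250 bases before each gene's start come from the promoter table of RefSeq on build GRCm38.p6, all on chromosome 11: Igtp at chr11:58199306-58199555 (plus strand), Irgm1 at chr11:48871421-48871670 (minus strand), Irgm2 at chr11:58214727-58214976 (plus strand) and Tgtp2 at chr11:49064213-49064462 (minus strand). They read 5′ to 3′ towards the gene, and capitals mark every match to the interferon-stimulated response element in the form of 2 copies of GAAA with any 2 bases between them, searched on both strands.
Igtp: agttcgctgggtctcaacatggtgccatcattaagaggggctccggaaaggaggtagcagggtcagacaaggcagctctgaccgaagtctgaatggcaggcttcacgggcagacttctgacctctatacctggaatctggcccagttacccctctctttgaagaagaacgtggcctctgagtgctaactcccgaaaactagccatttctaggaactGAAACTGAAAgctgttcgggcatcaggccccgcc
Irgm1: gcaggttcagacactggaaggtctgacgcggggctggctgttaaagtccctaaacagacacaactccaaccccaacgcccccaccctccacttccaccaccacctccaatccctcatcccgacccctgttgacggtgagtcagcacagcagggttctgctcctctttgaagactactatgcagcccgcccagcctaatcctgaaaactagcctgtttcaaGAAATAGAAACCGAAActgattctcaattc
Irgm2: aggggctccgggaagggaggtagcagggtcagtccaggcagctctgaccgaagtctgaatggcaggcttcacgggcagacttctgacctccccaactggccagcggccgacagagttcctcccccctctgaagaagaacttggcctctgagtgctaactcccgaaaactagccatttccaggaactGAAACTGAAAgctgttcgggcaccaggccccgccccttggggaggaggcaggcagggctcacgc
Tgtp2: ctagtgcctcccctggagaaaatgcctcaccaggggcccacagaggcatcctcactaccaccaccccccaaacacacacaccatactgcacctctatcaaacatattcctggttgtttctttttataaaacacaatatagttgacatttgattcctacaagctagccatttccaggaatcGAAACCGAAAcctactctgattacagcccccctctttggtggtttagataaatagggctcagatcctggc
The match began 34 bases before the start in Igtp, 64 in Irgm2 and 70 in Tgtp2. Irgm1 held 2 overlapping matches, which began 30 and 24 bases before its start. The element was present in 978 of all 32851 windows of the same length, or 2.98%. Of the 8 measured GTPase genes with a window in the table, 7 held it and Ifi47 did not, while Gbp4, Gbp9 and Iigp1 had no window there. A match describes the letters only and is not a measured binding site.

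Genes of the type I interferon response, which includes the antiviral Ifit and Oas families, did not stand higher as a list. Of 23 measured members, 9 had a ratio above 1 and none passed the size rule, with a median log2 ratio of -0.03. Isg15, a ubiquitin-like protein, stood at 194 CPM at d15 and 235 CPM at d36, Ifit1 at 116 and 104 CPM, and Bst2, which tethers budding viruses, at 858 and 770 CPM. The element above was also found in 9 of the 19 members with a window.

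Antigen-presentation genes lay slightly above the other genes. MHC class II genes, which present peptides to helper T cells, had ratios above 1 in 7 of 8 measured members, with a median log2 ratio of 0.29 and no member past the size rule. Cd74, the invariant chain that guides class II molecules, stood at 308 CPM at d15 (283 to 336) and 448 CPM at d36 (417 to 481), a ratio of 1.45 (1.3 to 1.63). Both values lay below those of the deeper days, 991 CPM at d0 and 2276 CPM at d22. The ratio of Cd74 was 2.3 without the largest cluster of general capillary-like cells, in which H2-Aa and H2-Ab1 are leading genes. H2-Ab1 stood at 376 and 464 CPM and H2-DMa, a peptide editor, at 47.8 and 69.1 CPM. For class I and peptide loading, 14 of 19 measured members had a ratio above 1, with a median log2 ratio of 0.11 and none past the size rule, and reads of the class I heavy chains can be shared among near-identical genes. Tap1, a subunit of the peptide transporter, stood at 121 and 169 CPM, a ratio of 1.4 (1.17 to 1.69), and Psmb9, a subunit of the immunoproteasome, at 209 and 275 CPM.

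**Figure D2:**
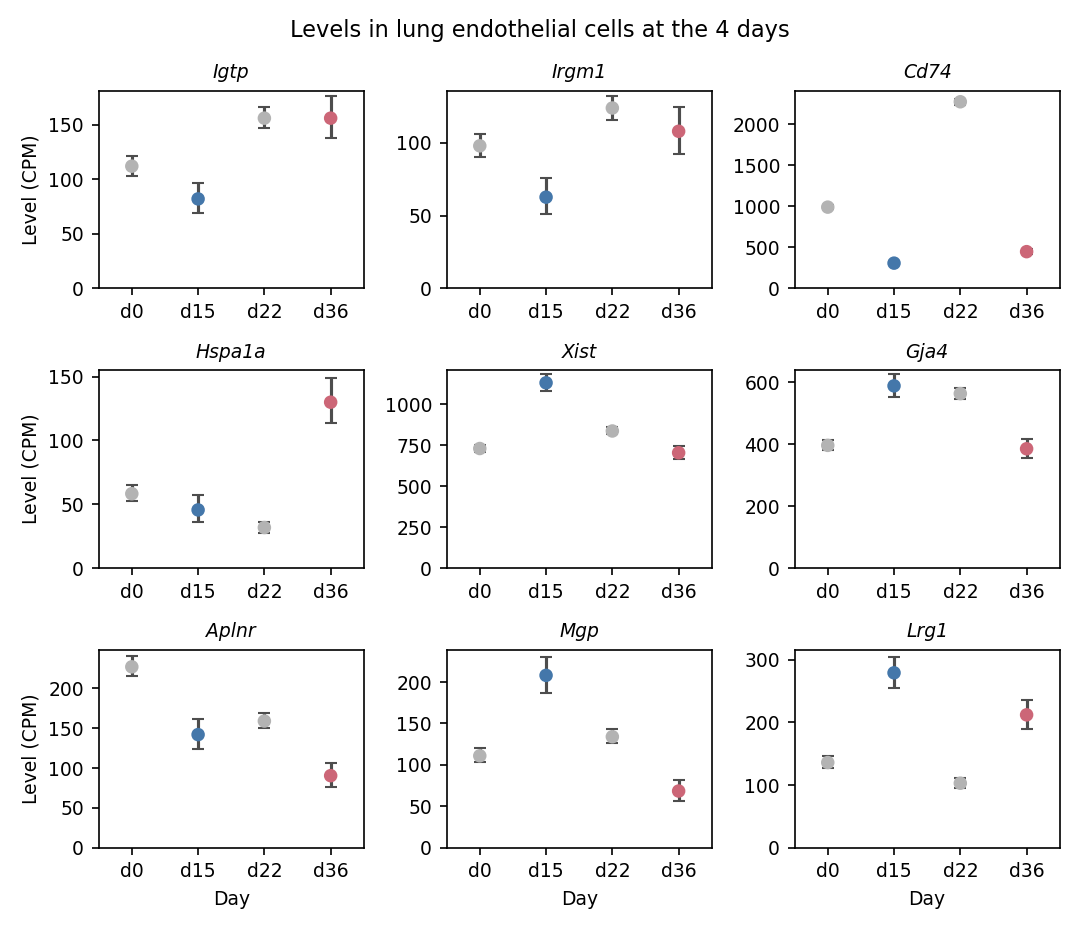
Level of 9 genes in EC (CPM, vertical, each axis from 0) at d0, d15 (blue), d22 and d36 (red), each day 1 pooled sample and bars the exact 95% Poisson interval of the counts divided by 4. Igtp, Irgm1 and Hspa1a stood higher at d36 than at d15, while Xist, Gja4, Aplnr, Mgp and Lrg1 stood lower, and Cd74 at both days lay below d0 and d22.

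Hspa1a, the inducible 70-kDa heat shock protein, had among the highest ratios. It stood at 45.6 CPM at d15 (36.1 to 56.9) and 130 CPM at d36 (114 to 149), a ratio of 2.85 (2.2 to 3.74), with 58.3 CPM at d0 and 31.8 CPM at d22. Cells with a UMI of it numbered 132 at d36 and 78 at d15, and the 5 cells richest in it held 27.8% and 17.7% of its UMIs. Of the 16 other measured members of the cytosolic heat shock list, 6 had a ratio above 1, and their median log2 ratio was -0.05. In general capillary-like cells 9 of these 16 lay above 1, with a median of 0.12. Hspa1b, a near-identical copy with which reads can be shared, stood at 2.74 and 4.78 CPM. Hspa8, the constitutive relative, stood at 2221 and 2217 CPM, Dnajb1 at 103 and 121 CPM, and Bag3, a co-chaperone, at 72.2 and 52.9 CPM. Cryab, a small heat shock protein, was lower at 26.9 and 16.9 CPM, although its interval (0.379 to 1.02) included 1. Among 24 immediate early genes none passed the size rule, with Fos at 1538 and 1129 CPM and Atf3 at 77.1 and 105 CPM.

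Further genes past the size rule at d36 included Gpx3, an extracellular glutathione peroxidase, at 22.5 CPM at d15 and 47.5 CPM at d36, a ratio of 2.11 (1.42 to 3.18). Nus1, a subunit of the enzyme that makes dolichol, stood at 20.9 and 44.7 CPM, and Spry1, an inhibitor of growth factor signalling, at 16.9 and 33.3 CPM. Sult1a1, a sulfotransferase from the glucocorticoid list, stood at 30.2 and 59 CPM, and Psme3, an activator of the proteasome, at 20.6 and 39.7 CPM. These genes were found in few cells (Gpx3 in 81 cells at d36 and 42 at d15). Bnip3 and Ankrd37, 2 hypoxia-induced genes, stood at 24.1 and 40.8 CPM and at 42.9 and 66.3 CPM. Bnip3 had a ratio of 1.69, and 1.48 without cells of low Malat1 or over 5% mitochondrial UMIs, while Ankrd37 had 1.55, and 1.32 with equal weight for each cell. The hypoxia and glycolysis list of 21 measured genes had a median log2 ratio of -0.02. Idi1 and Dhcr7, enzymes of cholesterol synthesis, had ratios of 1.72 and 1.65, while Abcg1, a cholesterol exporter, had 0.597, and the list's median was -0.23. The interval of Dhcr7 (1 to 2.77) did not exclude 1. The ratio of Dhcr7 was 1.39 with equal weight for each cell, and that of Abcg1 was 0.727 after thinning. Hmgb2, a chromatin protein of growing cells, stood at 80.6 and 127 CPM. Its ratio of 1.58 was 1.36 without cells of low Malat1 or over 5% mitochondrial UMIs. The cell cycle list had a median of 0.09, which covers only 10 of its 36 genes. The fixed markers of proliferating cells all lay below the filter, and each stood higher at d36. Mki67 stood at 0 and 5.23 CPM, Ube2c at 0.433 and 10.2 CPM and Cenpf at 7.22 and 11.1 CPM.

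Sftpc, the surfactant protein of alveolar type 2 epithelial cells, had the highest ratio of the named genes, at 37.4 CPM at d15 and 109 CPM at d36, a ratio of 2.93 (2.19 to 3.95). It was spread over 370 cells at d36 and 142 at d15. Summed epithelial markers (14 genes, 2 at 0 on each day) stood at 105 CPM at d15 and 177 CPM at d36 in the EC. In all deposited cells they stood at 621 and 1601 CPM. Sftpc is itself among these markers, and the difference of the sum in the EC lay with it. Of the others, Hopx stood at 37.7 and 41.4 CPM and Ager at 10.1 and 3.58 CPM in the EC. Fibroblast markers stood at 5.34 and 17.8 CPM (5 of 9 genes at 0 at d15 and 3 at d36), macrophage markers at 15.6 and 24.8 CPM, and mural cell markers at 20.4 and 29.3 CPM. Most of the fibroblast difference lay with Inmt (1.88 and 10.9 CPM), and the macrophage difference with Lyz2 (6.21 and 18.1 CPM). Erythroid and platelet markers stood at 39.7 and 28.8 CPM. The part of free RNA from other cells in these genes was not tested.

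Transcripts of the mitochondrial genome and of ribosomal proteins stood slightly higher at d36. All 11 measured mitochondrial genes had a ratio above 1, with a median log2 ratio of 0.36 and none past the size rule. The cytochrome oxidase subunit mt-Co3 stood at 3883 CPM at d15 and 5246 CPM at d36, a ratio of 1.35 (1.31 to 1.39). Nuclear genes of oxidative phosphorylation had a median of 0.05, with Atp5k, a small subunit of ATP synthase, past the size rule at 215 and 328 CPM, although its ratio of 1.53 was 1.39 with each count divided by 4 and rounded up. Of 77 ribosomal protein genes, 71 had a ratio above 1, with a median of 0.13. Their processed copies had a median of 0.28 over 12 genes, with Rps27rt (322 and 579 CPM) and Rpl36-ps3 (44.2 and 75.1 CPM) past the size rule, and reads of such copies can be split among near-identical genes. Cells poor in Malat1, a nuclear RNA, made up 8.62% of d36 and 3.56% of d15 EC. In general capillary-like cells, a class that holds no Malat1-poor cluster, the median was 0.27 for the mitochondrial list, 0.20 for ribosomal proteins (75 of 77 above 1) and 0.44 for their copies. In all EC without cells of low Malat1 or over 5% mitochondrial UMIs the median of the mitochondrial list was 0.26.

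**Figure D3:**
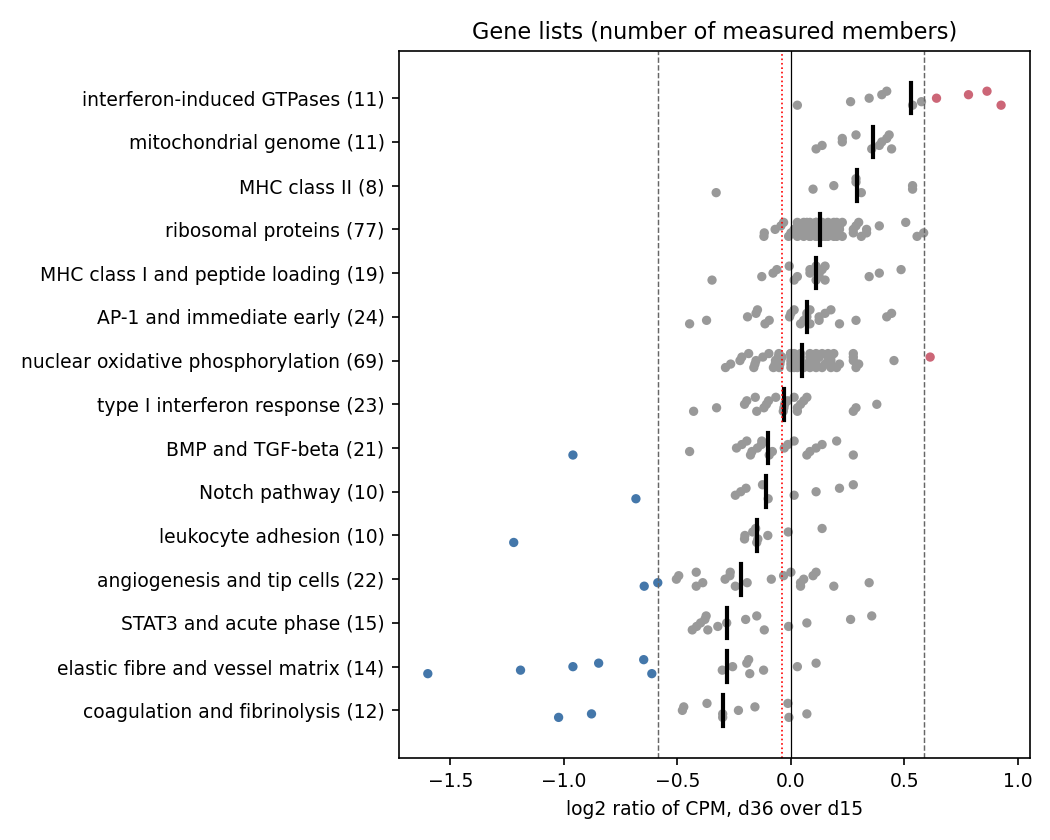
Log2 ratio d36 over d15 (horizontal) of the measured members of 15 gene lists, each point 1 gene (red higher, blue lower, grey within 1.5-fold), the black bars the list medians and the dotted red line the median of all measured genes at -0.04. The interferon-induced GTPases lie to the right with a median of 0.53, and the coagulation, elastic fibre and STAT3 lists to the left with medians of -0.30, -0.28 and -0.28.

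Some of the genes with the lowest ratios are known from larger vessels. Other arterial markers differed less, and most of them stood lower at d36. Matrix Gla protein (Mgp), which keeps arteries free of calcium, stood at 208 CPM at d15 (187 to 230) and 68.5 CPM at d36 (56.6 to 82.3), a ratio of 0.33 (0.265 to 0.408), which was 0.637 with all deposited cells. Of the arterial markers, Hey1, a Notch target, stood at 220 and 256 CPM, and Cxcl12, a chemokine, at 394 and 408 CPM. Efnb2, an ephrin, stood at 134 and 130 CPM and Gja5, a connexin, at 21.4 and 18.4 CPM. Plac8 stood at 225 and 191 CPM, Tm4sf1 at 1715 and 1481 CPM, Sema3g at 83 and 73.6 CPM and Bmx at 17.3 and 14.9 CPM. Gja4, also an arterial marker, was lower by the size rule (588 and 385 CPM) and is given below with the capillary genes. Of the elastic fibre and vessel matrix list, 6 of 14 measured members were lower and none higher, with a median log2 ratio of -0.28. They were Mgp, the fibre-assembling Fbln5 (66.6 and 29.1 CPM) and Ltbp4 (73.2 and 37.6 CPM), elastin itself (Eln, 106 and 67.6 CPM), the proteoglycan Bgn (68.4 and 38.1 CPM) and Mmrn2, a matrix ligand of EC (165 and 108 CPM). Cytl1, a secreted protein, stood at 138 and 52.3 CPM, and the lipid carrier Apoe at 132 and 55.1 CPM. The ratio of Apoe, 0.418, was 0.819 with all deposited cells. Arterial-like cells were fewer at d36, with 39 cells or 2.47% (1.76 to 3.36) against 56 cells or 3.77% (2.86 to 4.86), and fewer cells and less RNA per cell both enter a summed level. Without the arterial-like cluster the ratio of Mgp was 0.822 and that of Fbln5 was 0.305. Within general capillary-like cells Mgp had a ratio of 1.16, Cytl1 of 1.19 and Apoe of 1.51, each with an interval that included 1.

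Genes known from veins went the same way. Car8, a carbonic anhydrase-related protein, stood at 43.5 and 10.3 CPM, a ratio of 0.237 (0.132 to 0.404). Cpe, a carboxypeptidase, stood at 59.3 and 22.8 CPM, Ctsh, a lysosomal protease, at 89.4 and 31.5 CPM, and Amigo2, an adhesion protein, at 47.8 and 23.6 CPM. With the classes weighted to the same shares Amigo2 had a ratio of 0.682. Ackr3, a scavenging chemokine receptor, stood at 66 and 39 CPM, and its ratio was 0.764 without the venous-like cluster. Venous-like cells made up 41 cells or 2.6% (1.87 to 3.51) at d36 and 62 cells or 4.17% (3.21 to 5.31) at d15. Car8, Cpe, Amigo2, Ackr3 and Mgp were also among the marker genes by which the clusters were named.

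Ccl21a, a chemokine of lymphatic EC that guides dendritic cells, had the lowest ratio, at 530 CPM at d15 and 71.5 CPM at d36, a ratio of 0.135 (0.111 to 0.163). Its 5 richest cells held 63.9% of its UMIs at d15 and 90.4% at d36, and 98 cells of d15 and 39 of d36 held any. A small unnamed cluster led by Ccl21a and Fabp4 held 25 cells at d15 and 19 at d36, and without it the ratio was 0.325. Reads of Ccl21a can be split among near-identical copies, so its level is uncertain. Fabp4, a fatty acid carrier, stood at 198 and 108 CPM, a ratio of 0.544, which turned to 1.21 without that cluster. Such values rest on few cells. With the genes that differed between the days kept in the clustering, a lymphatic class held 12 cells at d15 and 3 at d36. Such sizes can follow the differing genes themselves. Of other lymphatic markers, Prox1 had 20 UMIs at d15 and 0 at d36, and Pdpn had 25 and 2. Mmrn1 had 29 and 23, Flt4 had 209 and 202, and Nts had 1 and 12.

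Among genes of the capillaries, Gja4, a connexin of endothelial gap junctions, stood at 588 CPM at d15 (552 to 625) and 385 CPM at d36 (356 to 416), a ratio of 0.655 (0.593 to 0.724). Its ratio lay on the other side of the size rule, at 0.678, with TMM scaling, and at 0.736 without the largest capillary cluster. Aplnr, the apelin receptor of general capillary cells, stood at 142 and 90.5 CPM, a ratio of 0.639 (0.518 to 0.786), and at 227 CPM at d0 and 159 CPM at d22. Without the largest capillary cluster its ratio was 0.757. Its ligand Apln, an aerocyte gene, stood at 65.7 and 57.5 CPM. Cyp26b1, which breaks down retinoic acid, stood at 45.6 and 16.1 CPM, a ratio of 0.353 (0.219 to 0.553), above the 13.9 CPM of d0 and 12 CPM of d22 at both days. Jam3, a junction adhesion molecule, stood at 35.5 and 15.2 CPM, and the Notch ligand Dll1 at 97.3 and 60.6 CPM, with a ratio of 0.623, or 0.668 without the venous-like cluster. Cd38, an enzyme that consumes NAD, stood at 169 and 112 CPM, and its ratio of 0.659 was 0.682 with TMM scaling.

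Several signalling lists lay below the other genes without members past the size rule or with few of them. Of 15 measured STAT3 and acute phase genes 12 had a ratio below 1, with a median log2 ratio of -0.28 and no call. Lrg1, a secreted glycoprotein that shapes endothelial TGF-beta signalling, stood at 279 CPM at d15 and 212 CPM at d36, a ratio of 0.759 (0.66 to 0.872), above the 136 CPM of d0 and 103 CPM of d22. Without the venous-like cluster the ratio of Lrg1 was 0.994. Socs3, the feedback inhibitor of the pathway, stood at 581 and 430 CPM. Of 12 coagulation and fibrinolysis genes 11 lay below 1, with a median of -0.30. Thbd, the thrombin receptor thrombomodulin, stood at 656 and 507 CPM, Vwf, the platelet-binding protein, at 241 and 174 CPM, and the protease inhibitor Serpine2 and prostacyclin synthase Ptgis were lower by the size rule, at 27 and 13.3 CPM and at 28.3 and 15.4 CPM. The ratio of Serpine2, 0.492, was 0.731 with all deposited cells. Within general capillary-like cells the coagulation median was -0.05 over 10 genes. Angiogenesis and tip cell genes had a median of -0.22, with Aplnr and Insr lower of 22. Insr, the insulin receptor, had a ratio of 0.666 (0.411 to 1.07), an interval that included 1, and 0.69 with TMM scaling. Kdr, the main VEGF receptor, stood at 333 and 314 CPM and Nrp1, its co-receptor, at 902 and 749 CPM.

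The remaining lists had medians between -0.20 and 0.10, against -0.04 over all genes. The shear-responsive factor Klf2 stood at 4052 CPM at d15 and 4492 CPM at d36, with 2632 CPM at d0 and 2502 CPM at d22, and Klf4 at 1024 and 1056 CPM. The junction list had a median of -0.10, with the tight junction protein Cldn5 at 5669 and 4746 CPM and Cdh5 at 1106 and 1032 CPM. Leukocyte adhesion genes had a median of -0.15, with 9 of 10 below 1. Icam1 stood at 398 and 359 CPM and Vcam1 at 62.8 and 54.5 CPM. Sele was at 0 at d15 and 0.597 CPM at d36 and Selp at 9.38 and 4.18 CPM, both below the filter. Notch genes had a median of -0.11, BMP and TGF-beta genes of -0.10, NF-kappaB genes of -0.10 and the circadian clock of -0.20, with Bhlhe40, a clock repressor, lower at 27.6 and 15.2 CPM, a ratio of 0.552, or 0.845 without the largest capillary cluster. Tie receptor and shear genes had a median of -0.15, integrins of -0.15, basement membrane genes of 0.07 and endothelial transcription factors of -0.04. Cyp1a1, a target of the aryl hydrocarbon receptor, stood at 34.8 and 51.4 CPM against 1207 CPM at d0, and the glucocorticoid-induced Sgk1 at 697 and 704 CPM.

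Xist, the RNA that coats the inactive X chromosome in females, was lower at d36. It stood at 1131 CPM at d15 (1082 to 1182) and 704 CPM at d36 (664 to 745), a ratio of 0.622 (0.578 to 0.669). The level at d36 was near the 730 CPM of d0, and that of d15 lay above the 837 CPM of d22. With cells thinned to 1500 UMIs, 59.7% of d15 cells (57.1 to 62.3) and 37.7% of d36 cells (35.2 to 40.3) held a UMI of it. Its antisense partner Tsix overlaps it, and whether the counting used the strand is not known here. Malat1, another nuclear RNA, stood at 50840 and 51773 CPM, a ratio of 1.02. The ratio of Xist was 0.624 in general capillary-like cells and 0.694 in aerocyte-like cells. Over all alternative settings it lay between 0.569 and 0.644. The Y-linked genes Ddx3y and Eif2s3y had no UMI in the EC of either day, Kdm5d had 3 at d15 and 1 at d36, and Uty had 2 at each.

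The cells were clustered without the genes that differed between the days, and clusters were named from fixed markers. General capillary-like cells, with Gpihbp1 and Plvap, made up 71.1% of EC at d15 (68.7 to 73.4) and 65.4% at d36 (63 to 67.7), a difference of -5.68 percentage points (-8.96 to -2.39). Aerocyte-like cells, with Car4 and Ednrb, made up 12.4% and 15.7%. The share of aerocyte-like cells lay mostly with a cluster of low UMI counts, which held 93 cells at d15 and 164 at d36, while the deeper aerocyte-like cluster held 92 and 83. Among cells with at least 2500 UMIs the difference was -1.95 points (-6.12 to 2.22) for general capillary-like cells. It was 1.13 (-0.02 to 2.35) for Malat1-poor cells and 1.42 (-1.68 to 4.52) for aerocyte-like cells, against 5.05 and 3.21 points over all EC. For these classes each interval among the deeper cells spanned both directions. For other classes it did not. Venous-like cells differed by -1.94 points (-3.67 to -0.24) and arterial-like cells by -1.76 (-3.37 to -0.19). Unnamed cells differed by 3.11 points (0.23 to 6.00). These are shares of a sort, and a difference in depth moved with them.

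**Figure D4:**
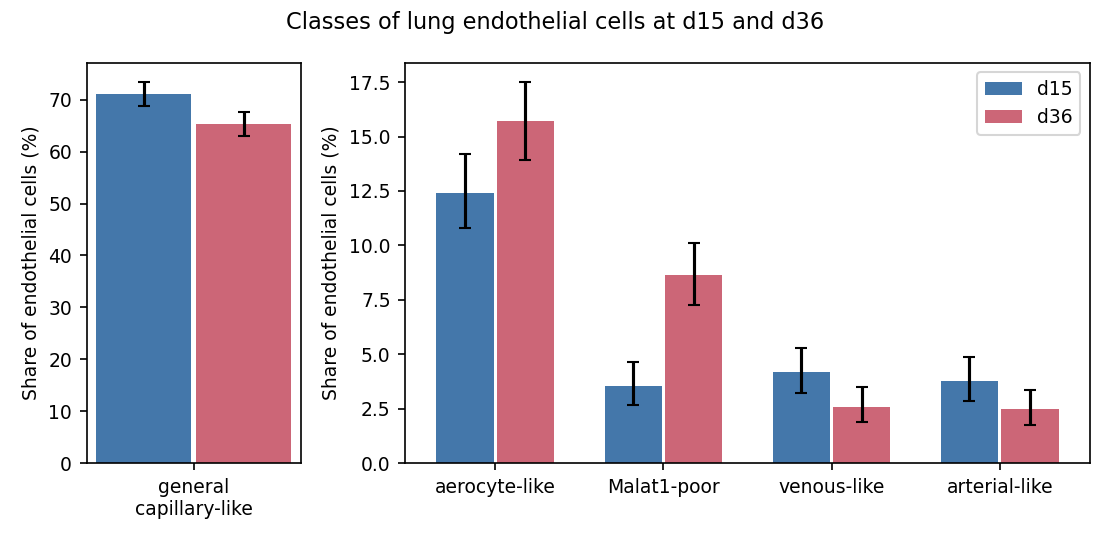
Share of EC (%, vertical, from 0) in each named class and in Malat1-poor cells at d15 (blue, 1487 cells) and d36 (red, 1578 cells), with exact binomial 95% intervals. General capillary-like cells fill 71.1% and 65.4%, and Malat1-poor cells 3.56% and 8.62%.

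General capillary-like cells gave the comparison closest in depth, with 1057 cells at d15 and 1032 at d36 and a median of 3832 and 3727 UMIs. Of 3470 genes with a mean of at least 50 CPM in the class, 33 were higher at d36, which is 0.951%, and 63 were lower, which is 1.82%, all with intervals that excluded 1. With this filter, fold and number of UMIs such an interval follows nearly by rule, so it adds no support to the calls. At a class mean of at least 20 CPM, 149 of 6144 genes were higher, which is 2.43%, and 312 were lower, which is 5.08%. At that filter 10 of 11 GTPases lay above 1 and 5 were higher, with a median log2 ratio of 0.50. At 50 CPM the higher ones were Igtp, Irgm1 and Gbp4. Igtp stood at 76.4 and 143 CPM, a ratio of 1.87 (1.42 to 2.47), and Irgm1 at 62.9 and 107 CPM, a ratio of 1.7 (1.25 to 2.32). Hspa1a stood at 34.6 and 147 CPM, a ratio of 4.24 (2.96 to 6.21). Aplnr stood at 195 and 112 CPM, a ratio of 0.575, Gja4 at 723 and 453 CPM, and Cd38 at 188 and 94.5 CPM. Of the elastic fibre list, 0 of 12 genes with a class mean of at least 20 CPM were lower, against 5.08% of all genes at that filter. Still, 9 of the 12 had a ratio below 1, with a median log2 ratio of -0.17 against -0.04 over all genes. Cd74 had a ratio of 1.18 (1.04 to 1.35) in the class.

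**Figure D5:**
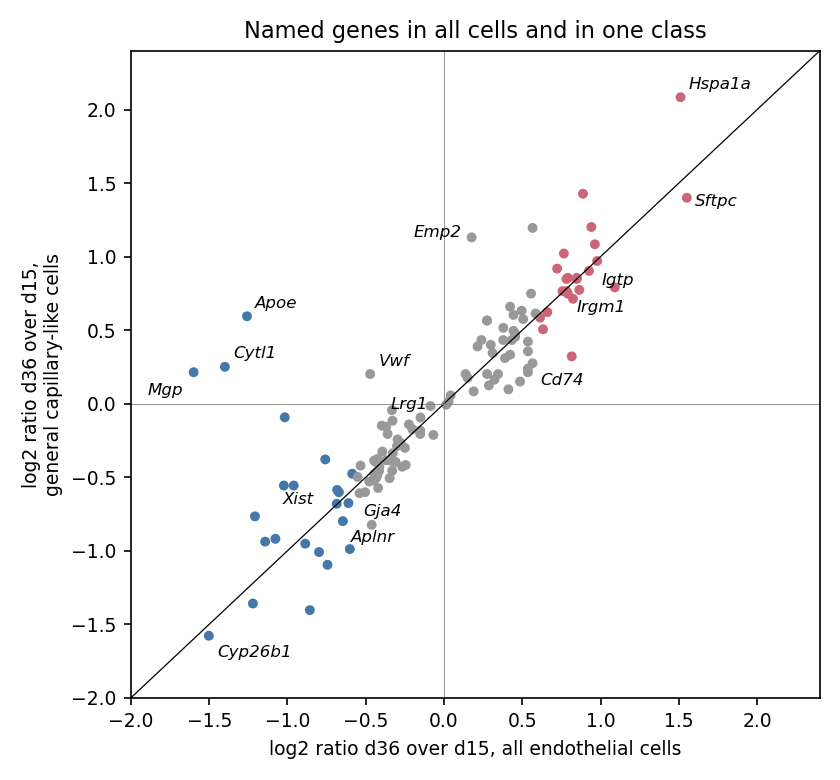
Log2 ratio d36 over d15 in all EC (horizontal) and in general capillary-like cells (vertical) for the 128 named measured genes with at least 40 UMIs of the class at each day, coloured by the call in all EC, with the diagonal as the line of equal ratios. Igtp, Irgm1, Xist and Gja4 lie near the diagonal, while Mgp, Cytl1 and Apoe are low only on the horizontal axis and Emp2 is high only on the vertical one.

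Emp2, a membrane protein and an aerocyte marker, stood at 76.6 CPM at d15 and 168 CPM at d36 in general capillary-like cells, a ratio of 2.19 (1.68 to 2.87), and at 3326 and 3244 CPM in aerocyte-like cells. In aerocyte-like cells the capillary markers Plvap (159 and 373 CPM) and Cd93 (26.5 and 77.4 CPM) stood higher at d36, as did Cd74 (11.2 and 46.8 CPM) and Gbp2 (28.1 and 79.9 CPM). The part of doublets and free RNA in these values was not tested. Depth in aerocyte-like cells differed, with a median of 5604 UMIs at d15 and 3211 at d36. Of 3382 genes measured there, 225 were higher and 253 lower, of which 75 and 90 had an interval that excluded 1. Igtp had a ratio of 1.35 (0.697 to 2.64) in aerocyte-like cells, an interval that held both 1 and the ratio of the general capillary-like cells.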

How the data were processed

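Per the labels, the deposited table holds counts, the UMIs per gene and cell, made by the authors with no normalization. Cell Ranger 2.1.1 and the build mm10 are listed, per the submitters' processing notes. The annotation and any earlier cell filter were not stated. The table has 28692 genes. Its cell names give the day and not the library, so the 4 libraries of a day formed 1 sample and no test was possible.

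Cells with at least 300 genes, at most 10% mitochondrial UMIs and under 0.5% of UMIs from the markers of any other cell type were kept, and 1 cluster of other cells was left out. This removed 50 cells of d36 and 20 of d15. No doublet caller was run, so doublets remain, and leaving out the 2% of cells with the most UMIs was tried. The d0 and d22 cells passed the per-cell rules only. The 3135 cells of the pair were clustered on 2000 variable genes and 30 components (Leiden, resolution 1.0, leidenalg 0.10.2, igraph 0.11.9, scikit-learn 1.9.0) without 1149 genes that differed between the days. A cluster with Malat1 under 25% of the median cluster's level stayed outside the classes. The cell filter and naming rules were set after the clusters had been seen.

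UMIs were summed per gene and day and divided by the total (numpy 2.4.6, scipy 1.17.1, Python 3.11.15). Ratio intervals come from the exact binomial of both counts divided by 4, level intervals from the exact Poisson, and shares from Clopper-Pearson, all at 95%. The counting was tested on simulated data. TMM factors came from edgeR 4.0.16. Alternatives changed the cells, scaling, weights, filter, fold and counting.

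The cells, the 35 gene lists and the rules were chosen with earlier results of these data known. Named were 15 genes with the highest and 15 with the lowest ratios past the rule of size, without predicted, mitochondrial, immunoglobulin and ribosomal genes, the 3 widest members of each list, the 3 highest and 3 lowest of each class, and fixed genes such as Lrg1, Cd74, Klf2 and Hspa1a. Genes given with a list to show its members were picked after their values had been seen. A gene is not reported here.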

Additional observations from a re-analysis of the deposited data

Results flagged for a closer look

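Cnppd1, a gene with a cyclin-like domain, went opposite ways in the 2 capillary classes. Its ratio d36 over d15 was 0.629 (0.454 to 0.866) in general capillary-like cells and 1.78 (1.08 to 2.97) in aerocyte-like cells. Each counting interval excluded 1. The gene was picked for this contrast, with 3470 and 3382 genes measured in the 2 classes. Depth in aerocyte-like cells differed, with a median of 5604 UMIs at d15 and 3211 at d36. With 1 pooled sample per day the difference between the classes was not tested.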

How the results depend on the processing

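The numbers of genes past the size rule followed the filter and the weight given to cells. Against 83 higher and 181 lower genes, there were 210 and 380 with cells thinned to 1500 UMIs, 128 and 299 with equal weight for each cell, and 212 and 371 without the largest general capillary-like cluster. There were 19 and 39 at a mean of at least 50 CPM, 1362 and 1911 without a filter beyond 1 UMI in each day, and 5 and 16 at a fold of 2. Dividing each count by 4 and rounding up, an alternative chosen after the data had been seen, gave 74 and 174. Among cells with at least 2500 UMIs the share of Malat1-poor cells differed by 1.13 percentage points (-0.02 to 2.35). That of general capillary-like cells differed by -1.95 (-6.12 to 2.22). At resolution 0.5 no Malat1-poor class was found. At resolution 2.0, where more cells stayed unnamed, general capillary-like cells differed by -2.42 points (-5.86 to 1.03). Of 2856 recomputed ratios of named genes 82 moved, and 23 crossed 1. Of those 23 only that of Fabp4 belonged to a gene past the size rule, at 1.21 without the cluster led by Ccl21a and Fabp4. Esyt1 had a ratio of 0.474, and 0.992 after thinning. Of 700 list medians 673 moved by less than 0.1. The causes were not tested. No paired analysis was possible because the cell names carry no library number. Genes under 20 CPM were too shallow to be read.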

Other observations

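Within general capillary-like cells, several genes outside the lists differed between the days, chosen here after their values had been seen. Dpp4, a membrane peptidase, stood at 137 CPM at d15 and 77.7 CPM at d36, and Pcdh1, a protocadherin, at 311 and 197 CPM. Wfdc1, a secreted protein and a marker of the class, stood at 275 and 176 CPM, and Ankrd44 at 325 and 216 CPM. Higher were Phlda1 at 40 and 76.1 CPM, the long non-coding RNA AW112010 at 59.2 and 119 CPM, Gata3, a transcription factor, at 54.7 and 82.6 CPM and Cyb5r3, a cytochrome b5 reductase, at 214 and 346 CPM. Tsix, the antisense partner of Xist, had 178 UMIs at d15 and 96 at d36, and whether counting used the strand is not given in the sources used here.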
